A study of Mus musculus with 15 samples.

Results

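Cells of the proximal small intestine that carried the stem call were compared with the other cells of the same organ, within each of 5 mice. The authors' cell table calls each cell stem or not stem, and in all 8052 proximal cells the call equalled the presence of at least 1 unique molecular identifier (UMI, a tag that marks 1 captured RNA molecule) of Lgr5 or eGFP. Of the 8052 proximal cells, 2036 were stem-called and 6016 were not, out of 18919 cells in the whole series. Lgr5 and eGFP define the call, so they were left out of every test and count. The question was which genes differ between the cells that this call sets apart and the rest of the proximal cells.

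The study profiled single intestinal cells with Seq-Well, which traps cells in small wells, in its version with second strand synthesis. All mice were 6 months old and were of the strain Lgr5-eGFP-IRES-CreERT2, whose allele places eGFP and an inducible Cre under the control of the Lgr5 locus. The 3 high fat mice ate a diet with 60% of kcal from fat, and the 2 control mice ate a purified diet with 10% of kcal from fat and matching sucrose. Each mouse gave 1 proximal, 1 distal and 1 colon library, 15 in all. The labels state no Cre induction and do not say how cells were isolated, the controls carry the same allele as the high fat mice, and a cell with Lgr5 RNA but no captured UMI falls among the other cells.

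The small intestine renews itself from stem cells at the base of its crypts, which sit between Paneth cells and depend on Wnt and Notch signals. Their daughters divide in the crypt as transit-amplifying cells and then mature into absorptive enterocytes or into secretory goblet, enteroendocrine, Paneth and tuft cells. Enterocytes, goblet and enteroendocrine cells move up onto the villus, where they are shed, while Paneth cells stay at the crypt base. Lgr5 is a receptor for R-spondins, ligands that strengthen Wnt signalling, and it is the best known marker of the crypt base stem cell.

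High fat mice 1 to 3 gave 207, 302 and 304 stem-called cells with 872, 1438 and 1363 other cells, and control mice 1 and 2 gave 606 and 617 stem-called cells with 1040 and 1303 other cells. Counts were summed per mouse and call, which gave 10 sums of 2328397 to 28652200 UMIs. Median UMIs per cell were higher in stem-called cells in 2 of 5 mice (exact sign-flip permutation p = 0.9375, two-sided). The smallest p that 5 pairs allow is 0.0625. The proximal label fitted its markers, since Gata4, a transcription factor of the upper gut, ran from 116 to 210 CPM (UMIs of the gene scaled to 1000000 UMIs of the sum) in proximal libraries and from 16.2 to 44.8 CPM in distal ones, and Fabp6, the bile acid binding protein of the ileum, ran from 0.542 to 1.16 CPM in proximal libraries and from 59.3 to 632 CPM in distal ones. Among barcodes, 3 of 8049 occurred in more than 1 proximal library.

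The library of high fat mouse 1 stands apart. Its median depth was 6870 UMIs in stem-called and 4498.5 in other cells, while the 4 other mice had medians from 11902 to 20087 UMIs. Cells with at least 0.1% of their UMIs from T and B cell markers numbered 253 in this mouse and 34 to 60 in each of the others. Of its other cells, 91.4% had an Olfm4 UMI at 3000 UMIs per cell, against 47.4% to 59.6% in the 4 other mice. Its cells entered every test, and list counts without them are also given.

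The call also reached cells rich in T and B cell markers, and T and B cells should lack Lgr5. These cells were picked by marker share alone. At 3000 UMIs 62.9% of them held a UMI of the enterocyte gene Fabp1, against 52.1% of other and 24.8% of stem-called cells. By mouse, Fabp1 was found in 93.0%, 74.9% and 72.7% of other cells in high fat mice 1 to 3 and in 9.62% and 15.9% in the controls. High fat mouse 1 gave 253 of the 449 marker-rich cells, so their pooled Fabp1 share does not tell their type. Whether they are T or B cells was not tested. Of the 449 cells rich in T and B cell markers (median 5665 UMIs), 83 or 18.5% were stem-called (exact 95% binomial interval 15% to 22.4%, counting error only), against 25.3% of all proximal cells. These shares pool mice of unlike call rates. By mouse, 15%, 20.7% and 14.7% of marker-rich cells were called in the high fat mice and 26.7% and 27.3% in the controls, against 19.2%, 17.4% and 18.2% and 36.8% and 32.1% of all cells, so the share was lower in 4 of 5 mice. With every cell thinned to 3000 UMIs and the call made again, 8.96% of such cells and 11.1% of all 7896 cells kept deep enough were called, and 21 stem-called and 135 other cells were too shallow to enter. Among the 2036 stem-called cells, 757 or 37.2% rested on a single UMI, 421 on 2 and 858 on 3 or more. Lgr5 alone gave the call in 1876 cells, eGFP alone in 57, and both were seen in 103.

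edgeR's quasi-likelihood test, paired by mouse, tested 12070 genes. Stem-called cells were higher in 2801 genes (23.2%) and lower in 2987 (24.7%) at an adjusted p under 0.05. In summed cells, fewer cells of a type and less RNA per cell cannot be told apart. Most differences were small, with a median absolute log2 fold change of 0.39 among called genes. Fold changes are stem-called over other cells throughout, on the log2 scale. A value of at least 1 in size was reached by 269 of the higher and 622 of the lower genes. With all cells at 3000 UMIs, 665 genes were higher (6.85%) and 903 lower (9.3%) of 9710 tested. Of those 1568 calls, 1522 were also called at full depth, and all 1522 kept their direction. The median log2 fold change over all genes tested was 0.01 at full depth.

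Stem cell markers of the crypt base were among the largest rises. Olfm4, a secreted glycoprotein of crypt base cells (GRCm38 chromosome 14, 79984081 to 80023139, + strand), had 4154, 5532 and 5304 CPM in stem-called cells of high fat mice 1 to 3 and 4749 and 4535 CPM in those of control mice 1 and 2, against 2173, 1266 and 1362 CPM and 1361 and 1003 CPM in the other cells of the same mice. Every stem-called sum lay above every sum of other cells, and the gap was narrowest in high fat mouse 1. Olfm4 averaged 4855 ± 562 CPM in stem-called and 1433 ± 439 CPM in other cells (SD, n = 5 each), a log2 fold change of 1.75 (SE 0.145, edgeR adjusted p = 4.45e-06). Ascl2, a Wnt-driven transcription factor needed for stem cell fate, had 47.7, 73.1 and 77.7 CPM in stem-called cells of the high fat mice and 54.0 and 72.4 CPM in those of the controls, against 21.6, 18.1 and 15.9 CPM and 18.1 and 18.5 CPM in other cells. The groups did not overlap, as was the case for 5.34% of all genes tested in the higher direction. Its log2 fold change was 1.81 (SE 0.12, edgeR adjusted p = 1.44e-06). Slc12a2, a basolateral chloride transporter and one of the listed stem markers, averaged 2939 ± 411 CPM in stem-called and 1111 ± 116 CPM in other cells.

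**Figure D1:**
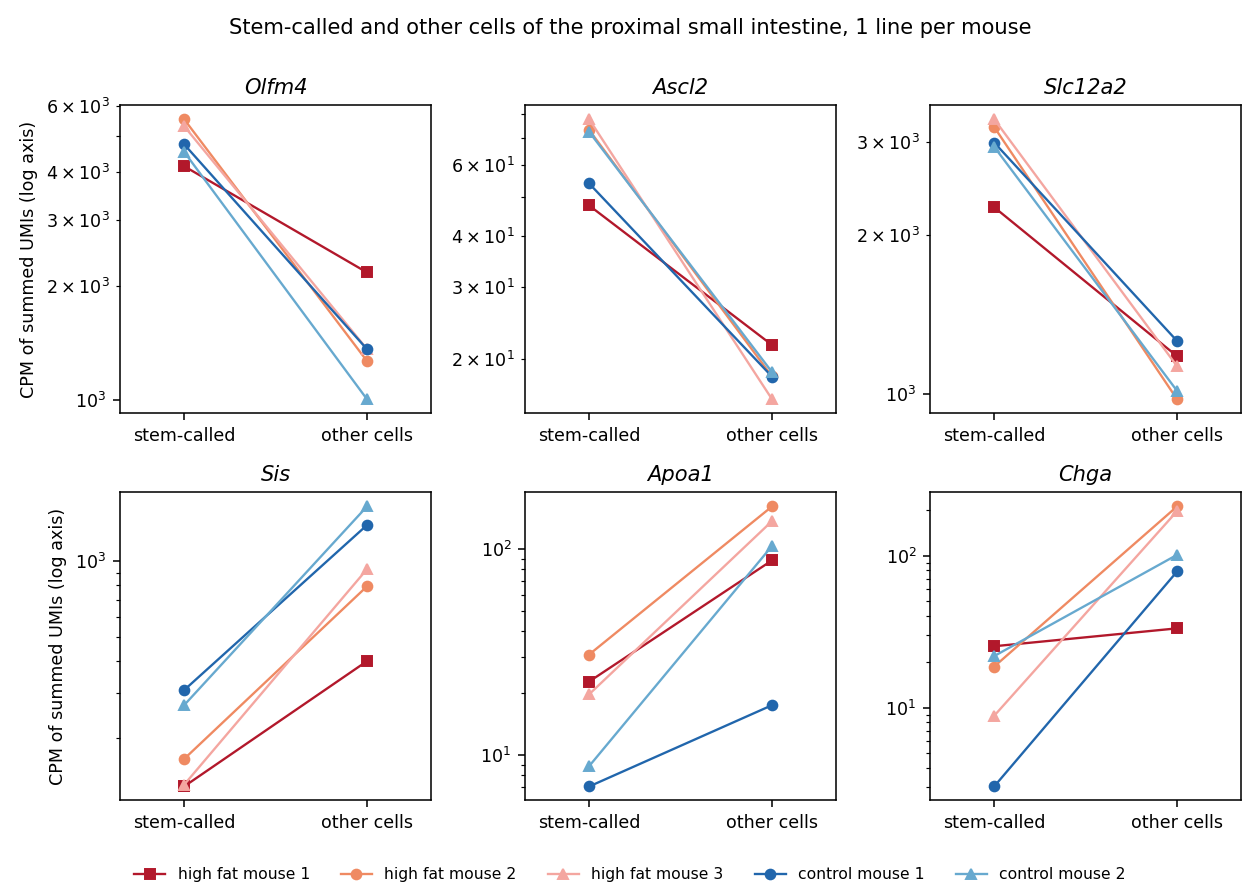
CPM (log axis) of 6 genes in the summed stem-called cells (left of each panel) and other cells (right), with 1 line for each of the 3 high fat and 2 control mice. Olfm4, Ascl2 and Slc12a2 sit higher in stem-called cells in all 5 mice, and Sis, Apoa1 and Chga sit lower in all 5.

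The 10 largest rises in genes of at least 20 CPM were Gm830, Cyp2e1, Slc1a2, Arl4c, Gkn3, Ascl2, Rgmb, Igfbp4, Olfm4 and Prelp. Gm830, a predicted gene, had the largest log2 fold change of them at 3.18 (SE 0.235), with 60.1, 73.6 and 67.1 CPM in stem-called cells of the high fat mice and 73.4 and 46.4 CPM in those of the controls, against 20.3, 5.87 and 6.53 CPM and 5.90 and 3.67 CPM in other cells. Only high fat mouse 1 exceeded 10 CPM in its other cells. The glutamate transporter Slc1a2 was higher by 2.39 (SE 0.17), and the cytochrome P450 enzyme Cyp2e1 by 2.42 (SE 0.16). Rgmb, a co-receptor for bone morphogenetic proteins (BMPs), was higher by 1.78 (SE 0.10) and Igfbp4, which binds insulin-like growth factors, by 1.77 (SE 0.09). edgeR adjusted p was 2.29e-06 or less for these 5 genes, with the largest at Gm830.

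Of 28 crypt base stem cell markers in the table, 27 were tested and 26 were higher, with none lower and a median log2 fold change of 1.34. All 26 were higher in each of the 5 mice, a pattern seen in 28.6% of all genes tested. Urah was the tested member that was not called, at −0.10, and Htra1 was too low to test. The 2 largest rises were Tnfrsf19, a Wnt-induced receptor of the tumour necrosis factor family, at 2.78 (SE 0.15) and Fstl1, a secreted follistatin-like protein, at 2.73 (SE 0.235). At 3000 UMIs 24 of the 27 were called higher, with a median of 1.16. Among 10 genes known for reserve stem cells above the crypt base, 8 were higher and Krt19 was lower. They included Msi1, an RNA-binding protein, at 1.60 (SE 0.13), Sox9, a transcription factor of the crypt, at 1.23 (SE 0.07), and Lrig1, a brake on epidermal growth factor receptors, at 0.89 (SE 0.06).

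The levels were graded by how many Lgr5 and eGFP UMIs a cell held. Olfm4 had a median over the 5 mice of 1360 CPM in cells with 0, 3360 in cells with 1, 5030 in cells with 2 and 5630 in cells with 3 or more. Ascl2 had 18.1, 52.0, 62.0 and 84.6 CPM over the same classes. By these medians, cells just inside the call sat between the uncalled cells and the rest of the called ones for both genes. For Ascl2 not every mouse was graded. High fat mouse 1 had 43.7 CPM with 1 UMI and 33.2 with 2, and control mouse 1 had 62.0 with 2 and 57.6 with 3 or more. Sis, the brush border enzyme sucrase-isomaltase, had 928, 261, 132 and 122 CPM, and Mki67, a marker of cycling cells, had 1140, 1180, 1120 and 1190 CPM. Median depth per cell was 14344.5, 13551, 12608 and 16118.5 UMIs in these classes, and its part in the levels was not tested.

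**Figure D2:**
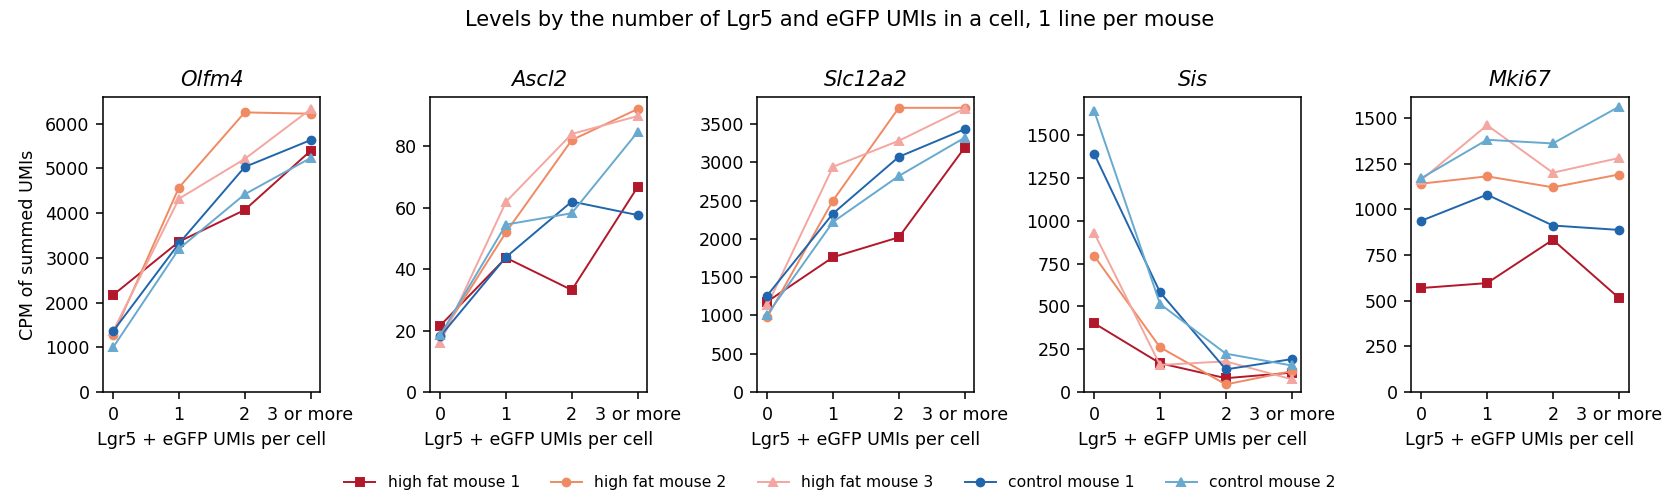
CPM of 5 genes in cells with 0, 1, 2 and 3 or more UMIs of Lgr5 and eGFP together, with 1 line per mouse. Olfm4, Ascl2 and Slc12a2 are lowest and Sis highest in cells with 0 UMIs in every mouse, and Mki67 shows no shared slope.

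At 3000 UMIs per cell, with the call kept from full depth, an Olfm4 UMI was found in 96.3% of stem-called and 57.0% of other cells. Among all cells rich in T and B cell markers, called or not, it was found in 74.4%, though T and B cells should not make it. Without thinning these shares were 98.2%, 76.7% and 84.6%, at median depths of 14523, 14344.5 and 5665 UMIs. The pooled share of the marker-rich cells rests largely on high fat mouse 1, which gave 253 of the 449. By level, uncalled marker-rich cells had 2500, 668 and 1710 CPM of Olfm4 in the high fat mice and 790 and 544 CPM in the controls, below all other cells of the same mouse in 3 of 5 mice, so the order of these 2 shares is not read. Ascl2 was found in 16.3%, 5.49% and 6.22% of the same 3 groups after thinning and in 51.9%, 15.9% and 10.7% before it. Sis was found in 18%, 48.7% and 33.6% after thinning and in 41.2%, 66.6% and 44.8% before it. The Sis share in stem-called cells lies below that of the marker-rich cells, but the type of the latter is not known and they set no floor. How much of the Sis share is background was not tested. The Olfm4 share at 3000 UMIs was higher in stem-called than in other cells in 5 of 5 mice by a mean of 36.3 points. The Sis share was lower in 5 of 5 by 30.6 points, each at the smallest p that 5 pairs allow (exact sign-flip permutation p = 0.0625, two-sided).

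Genes of the Wnt pathway went mostly with the stem call. Of 22 tested targets and feedback genes, 16 were higher and 2 were lower, with a median of 0.86. Axin2, a negative feedback inhibitor of the pathway, had 360, 310 and 364 CPM in stem-called cells of the high fat mice and 550 and 380 CPM in those of the controls, against 153, 92.1 and 113 CPM and 242 and 126 CPM in other cells. Its groups did not overlap, and its log2 fold change was 1.44 (SE 0.08, edgeR adjusted p = 6.44e-07). The transcription factor Sp5, a direct Wnt target, had 24.1, 30.1 and 24.7 CPM in stem-called cells of the high fat mice and 28.6 and 17.5 CPM in those of the controls, against 9.38, 6.75 and 5.88 CPM and 10.5 and 3.70 CPM in other cells. Its groups did not overlap either. Sp5 was higher by 1.83 (SE 0.14) and the guidance receptor Ephb3, which positions cells in the crypt, by 1.56 (SE 0.10). The ligand receptor Fzd5 and the homeobox factor Prox1 were lower, at −0.57 and −1.35, and Ccnd2, Tcf7l2, Lrp5 and Lrp6 were not called. At 3000 UMIs, 11 of 19 tested members were higher and 1 was lower.

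Promoter windows are shown for Sp5, which rose, and for Sis, which fell, because their lists moved in opposite directions. Both come from the RefSeq promoter table for GRCm38.p6 and give the 250 bases before the start of the gene, 5′ to 3′ on the gene's strand. Capitals mark CTTTGA, the core read by the TCF and LEF factors of the Wnt pathway, or GTTAAT, a core of the site of the HNF1 factors of gut epithelium, each searched on both strands (TCAAAG and ATTAAC on the other strand). Sp5 lies at chr2:70474673-70474922 on the + strand and Sis at chr3:72967864-72968113 on the − strand.
Sp5: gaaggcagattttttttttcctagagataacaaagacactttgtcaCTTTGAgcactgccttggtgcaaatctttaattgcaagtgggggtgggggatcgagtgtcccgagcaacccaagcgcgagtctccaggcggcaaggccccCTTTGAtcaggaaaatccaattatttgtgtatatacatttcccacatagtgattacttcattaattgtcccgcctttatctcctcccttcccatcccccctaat
Sis: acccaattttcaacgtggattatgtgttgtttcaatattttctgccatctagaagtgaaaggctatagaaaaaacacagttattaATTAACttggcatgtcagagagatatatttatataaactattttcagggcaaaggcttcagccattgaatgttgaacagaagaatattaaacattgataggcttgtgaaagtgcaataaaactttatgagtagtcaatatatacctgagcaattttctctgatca
The Sp5 window holds CTTTGA 2 times, starting 204 and 104 bases before the gene, and the Sis window holds ATTAAC 1 time, starting 165 bases before it. CTTTGA was found in 13.8% of all 32851 windows in the table, in 1 of the 15 tested Wnt genes that have a window (6.67%), in 4 of 20 such crypt base markers (20%) and in 6 of 34 such enterocyte genes (17.6%). GTTAAT was found in 6.43% of all windows, in 1 of 15 Wnt genes (6.67%), in 1 of 20 crypt base markers (5%) and in 6 of 34 enterocyte genes (17.6%). A list gene counts as a match if any of its windows holds the letters, while the share over all windows counts each window. These shares are therefore in unlike units. The Wnt gene with CTTTGA is Sp5 itself. A match describes the letters only.

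Of 13 tested Notch pathway genes, 5 were higher, 4 were lower and 4 were not called, with a median of 0.04. The receptors Notch1 and Notch2 were higher in stem-called cells, at 1.18 (SE 0.06) and 0.55 (SE 0.07), as were Lfng, which modifies Notch receptors, the target Hes1 and the DNA-binding partner Rbpj. The ligands Dll1, Dll4 and Jag1 and the secretory fate factor Atoh1 were the 4 lower ones, Jag1 in 4 of 5 mice, and the ligand Jag2 was not called, at −0.53. Atoh1 had 12.5, 10.4 and 7.20 CPM in stem-called cells of the high fat mice and 9.10 and 3.51 CPM in those of the controls, against 14.9, 19.2 and 14.4 CPM and 19.9 and 19.2 CPM in other cells. Its groups did not overlap, and its log2 fold change was −1.33 (SE 0.23, edgeR adjusted p = 0.000606). At 3000 UMIs, 2 of 12 tested members were higher and 1 was lower. Of 12 BMP pathway genes 3 were higher, among them the ligand Bmp7 and the signal carrier Smad5, and 2 were lower, among them the target Id3, which is near the background of 23.2% higher and 24.7% lower over all genes tested and no result about the list. In the growth factor list, 9 of 16 were higher and 2 lower, led by the feedback gene Phlda1 at 1.18 (SE 0.09), which is also counted among the crypt base markers. At 3000 UMIs 3 of 13 tested members of the growth factor list were higher and none was lower.

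Division genes separated the groups little. Mki67 had 637, 1173 and 1330 CPM in stem-called cells of the high fat mice and 954 and 1483 CPM in those of the controls, against 569, 1140 and 1157 CPM and 937 and 1169 CPM in other cells. Mki67 was higher in stem-called cells in 5 of 5 mice, a pattern seen in 28.6% of all genes tested. The groups overlapped widely across mice, with the lowest values in high fat mouse 1 on both sides. Paired by mouse, the log2 fold change was 0.10 (SE 0.05, edgeR adjusted p = 0.141). Of 29 mitosis genes, 11 were higher and 1 was lower, with a median of 0.13, and at 3000 UMIs 1 was higher and 2 were lower. Of 28 DNA replication genes, 19 were higher and 1, the ribonucleotide reductase subunit Rrm2, was lower, with a median of 0.22. At 3000 UMIs 1 of the 28 was higher and 1 lower. The mitosis gene with the largest change was Cenpf, a kinetochore protein, at 0.58 (SE 0.07).

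Genes that build the ribosome were higher by a small amount. Cytosolic ribosomal proteins were higher in 36 of 43 tested and lower in none, with a median of 0.23, and at 3000 UMIs in 18 of 41. Ribosome biogenesis genes were higher in 18 of 24 and lower in 1, with a median of 0.28, and at 3000 UMIs in 3 of 24. Npm1, a nucleolar chaperone, was higher by 0.43 (SE 0.05). Of 15 translation and splicing factors 7 were higher and none lower. Serine and one-carbon synthesis genes were higher in 8 of 14 and lower in none, led by Phgdh, the first enzyme of serine synthesis, at 0.81 (SE 0.08), and 3 of 14 were called at 3000 UMIs.

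Absorptive enterocyte genes were mostly lower in stem-called cells. Of 43 tested, 39 were lower and 1, the brush border protease subunit Mep1a, was higher, with a median of −1.61. Sis had 128, 164 and 130 CPM in stem-called cells of the high fat mice and 308 and 269 CPM in those of the controls, against 401, 794 and 928 CPM and 1387 and 1644 CPM in other cells. The groups did not overlap, as for 4.79% of all genes in the lower direction, and both call groups of the high fat mice sat below the matching control values. Its log2 fold change was −2.40 (SE 0.12, edgeR adjusted p = 5.68e-07). Apoa1, the main protein of high density lipoprotein, had 22.8, 30.8 and 19.7 CPM in stem-called cells of the high fat mice and 7.04 and 8.84 CPM in those of the controls, against 88.4, 162 and 137 CPM and 17.5 and 104 CPM in other cells. The other cells of control mouse 1 lay within the range of the stem-called sums, though Apoa1 was lower in stem-called cells in 5 of 5 mice, at −2.66 (SE 0.21, edgeR adjusted p = 3.82e-06). Slc2a2, the basolateral glucose transporter GLUT2, was lower by a log2 fold change of −2.75 (SE 0.16). At 3000 UMIs 30 of 37 were lower and none was higher.

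Other genes were also among the 10 largest falls in genes of at least 20 CPM. Krt20, a keratin of differentiated epithelium, was at −2.62 (SE 0.21), the apolipoprotein L relative Apol10a at −2.51 (SE 0.08) and Papss2, which makes the sulphate donor of the cell, at −2.49 (SE 0.22). Reg1, a secreted lectin, had 19.8, 20.6 and 16.5 CPM in stem-called cells of the high fat mice and 16.6 and 21.0 CPM in those of the controls, against 83.0, 153 and 191 CPM and 94.96 and 92.5 CPM in other cells. Its groups stood well apart, at −2.68 (SE 0.16, edgeR adjusted p = 7.66e-07). Of 8 tested antimicrobial and defence genes, 6 were lower and none higher, among them Reg3b at −2.34 (SE 0.22) and Reg4, which goblet and enteroendocrine cells also make, at −1.88 (SE 0.36). Villus tip genes were lower in 5 of 12 and higher in 1.

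Enteroendocrine markers were lower in 20 of 20 tested, with a median of −2.68. Chga, a granule protein of hormone cells, had 25.3, 18.6 and 8.84 CPM in stem-called cells of the high fat mice and 3.03 and 21.8 CPM in those of the controls, against 33.2, 210 and 196 CPM and 78.6 and 101 CPM in other cells. The groups did not overlap, and high fat mouse 1 had the smallest gap. The log2 fold change was −3.09 (SE 0.37, edgeR adjusted p = 5.68e-05). The hormones Cck and Tac1 were at −3.52 (SE 0.42) and −3.17 (SE 0.40), the granule phosphatase relative Ptprn2 at −2.88 (SE 0.20) and the prohormone processor Cpe at −3.21 (SE 0.35). Only 14 of the 20 were lower in all 5 mice, and without high fat mouse 1 all 21 tested members were lower, with a median of −3.33. At 3000 UMIs 13 of 14 were lower.

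Goblet markers were lower in 15 of 19, with a median of −1.55, and Foxa3 and Clca1 were higher. A gene named Clca3 is also in the data and the annotation is not given. Whether this Clca1 is the goblet gene of that name is therefore uncertain. Zg16, a lectin of the mucus granule, had 79.5, 111 and 28.8 CPM in stem-called cells of the high fat mice and 30.6 and 5.04 CPM in those of the controls, against 117, 212 and 244 CPM and 64.3 and 174 CPM in other cells. The ranges overlapped while each mouse was lower in stem-called cells, at −2.05 (SE 0.47, edgeR adjusted p = 0.00419). Tuft markers were mostly not called, with 1 of 15 higher and 3 lower. T and B cell markers were lower in 15 of 22 and higher in none. Their summed level was 111 to 309 CPM in stem-called and 134 to 940 CPM in other cells, the highest in high fat mouse 1. With marker-rich cells left out, the counts of the crypt base, Wnt, ribosome biogenesis and enteroendocrine lists were the same as with them. T and B cell markers were then lower in 2 of 13 tested. The filter is made from these same markers, so that smaller count is no finding.

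Paneth markers gave unlike values by depth and by organ. At full depth 2 of 15 tested were lower, 1 was higher and 12 were not called, with a median of −0.36. Their summed level was 149 to 1640 CPM in stem-called cells and 276 to 1350 CPM in other cells. The defensin Defa24 had 27.1, 117 and 71.0 CPM in stem-called cells of the high fat mice and 416 and 262 CPM in those of the controls, against 129, 81.3 and 93.4 CPM and 401 and 266 CPM in other cells. Neither call group was higher throughout, and the log2 fold change was −0.25 (SE 0.22, edgeR adjusted p = 0.38). With the call made at 3000 UMIs, 6 of 7 tested members were lower, with a median of −1.80 against −0.25 for the same 7 at full depth, and Defa24 was at −1.36 (SE 0.20, edgeR adjusted p = 2.23e-05). In the distal small intestine 15 of 19 were higher in stem-called cells and 2 lower, with a median of 1.498, while 25.7% of all distal genes tested were higher and 24.0% lower. The proximal minus distal difference was called for 3 Paneth markers, all negative: Lyz1, Defa17 and Habp2, named here after their values were seen. Defensin genes are near-identical copies, so the value of a single one is uncertain.

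Energy metabolism genes were mostly lower. Nuclear-encoded oxidative phosphorylation genes were lower in 42 of 43 and higher in none, with a median of −0.29, and at 3000 UMIs in 28 of 43. Uqcrfs1, a subunit of complex III, had 301, 391 and 294 CPM in stem-called cells of the high fat mice and 269 and 323 CPM in those of the controls, against 347, 571 and 428 CPM and 368 and 457 CPM in other cells. Each mouse was lower in stem-called cells, but the difference was smallest in high fat mouse 1, at −0.51 overall (SE 0.05, edgeR adjusted p = 1.65e-05). Mitochondrially encoded genes were lower in 5 of 9 and, at 3000 UMIs, in none of 8. The median mitochondrial share of UMIs was higher in stem-called cells in 3 of 5 mice. Of 17 glycolysis genes 11 were lower, led by the platelet form of phosphofructokinase, Pfkp, at −1.63 (SE 0.08), while hexokinase 2, Hk2, was higher at 0.85 (SE 0.10). Fatty acid and cholesterol synthesis genes were lower in 15 of 23 and higher in 3, with the elongase Elovl6 at −1.28 (SE 0.06).

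Of 43 fatty acid oxidation genes and targets of the PPAR nuclear receptors, 27 were lower and 3 were higher, with a median of −0.29. The higher ones included Acot1 and Acsl1, which couples fatty acids to coenzyme A, at 0.77 (SE 0.20) and 0.38 (SE 0.04). Slc27a4, a fatty acid transporter, was at −1.05 (SE 0.11) and Me1, which makes NADPH, at −1.79 (SE 0.15). At 3000 UMIs 3 of 40 were higher and 13 lower. The difference went up in all 5 mice in 3 of the 43 and down in all 5 in 19, while 18.6% of all genes tested were lower in all 5.

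The difference between stem-called and other cells was unlike between diets in 3 of 12070 genes, 1 with a larger value on the high fat diet (0.00829%) and 2 with a smaller one (0.0166%), by edgeR's interaction test. An unadjusted p under 0.05 was found in 472 genes. Acot1, which releases fatty acids from coenzyme A, had log2 ratios of 0.56, 0.54 and 0.35 in the high fat mice and 2.06 and 1.51 in the controls, a difference of −1.47 (SE 0.16, edgeR adjusted p = 0.0109). Its levels were 250, 200 and 126 CPM in stem-called and 169, 137 and 98.5 CPM in other cells of the high fat mice, against 25.4 and 15.7 CPM and 5.32 and 4.85 CPM in the controls. Stem-called cells were higher in each mouse, and both call groups of the high fat mice lay above those of the controls.

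Acot1 was also present in cells rich in T and B cell markers that carried no stem call, with 163, 104 and 80.6 CPM in the high fat mice (215, 46 and 29 cells) and 2.52 and 4.53 CPM in the controls (44 and 32 cells). Each of these levels lay below that of all other cells of the same mouse, and their part in the ratio was not tested. Vim, an intermediate filament of mesenchymal and immune cells, was lower in stem-called cells with log2 ratios of −0.90, −0.77 and −0.91 in the high fat mice and −3.18 and −2.81 in the controls, a difference of 2.48 (SE 0.20, edgeR adjusted p = 0.000716). Its levels were 9.88, 19.1 and 16.0 CPM in stem-called and 19.2, 33.1 and 30.96 CPM in other cells of the high fat mice, against 3.76 and 2.12 CPM and 42.0 and 20.8 CPM in the controls. In the marker-rich cells Vim had 39.6, 176 and 18.7 CPM in the high fat mice and 124 and 254 CPM in the controls, and their part in its ratio was not tested. At 3000 UMIs neither interaction was called by edgeR, with a difference of −1.38 for Acot1 (adjusted p = 0.271) and 3.55 for Vim (adjusted p = 1.0). That of Acot1 was also not called without control mouse 1, at −1.19 (edgeR adjusted p = 0.0587), or without high fat mouse 2, at −1.495 (edgeR adjusted p = 0.0932). The differences kept their direction in each of these fits.

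**Figure D3:**
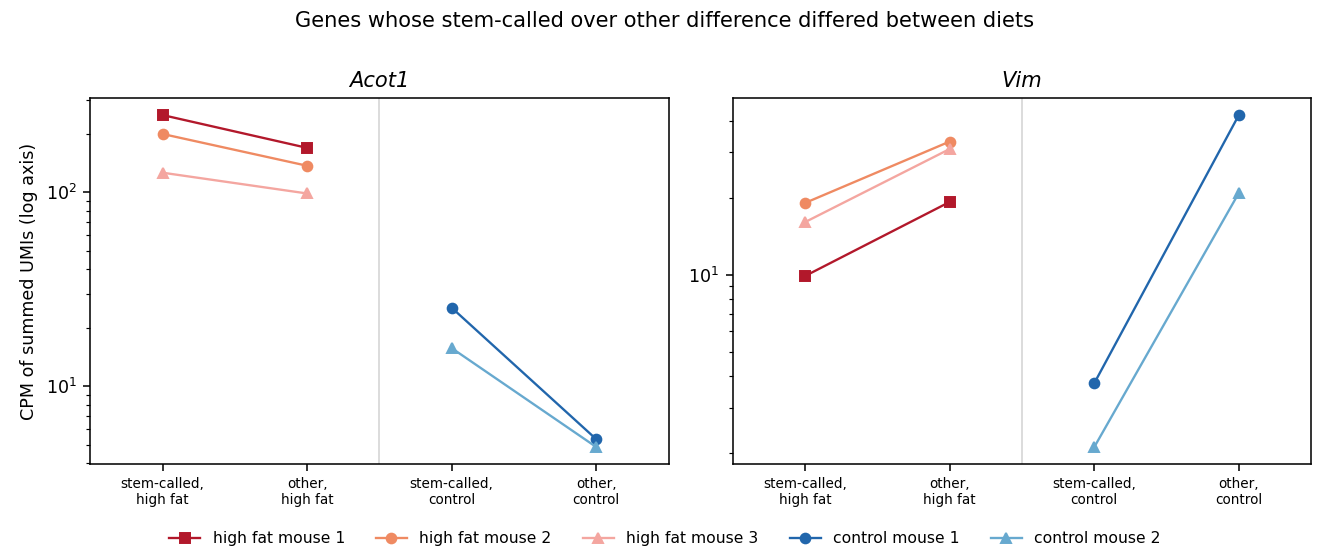
CPM (log axis) of Acot1 and Vim in stem-called and other cells of the 3 high fat mice (left of the grey line) and the 2 control mice (right), with 1 line per mouse. The lines of the control mice are steeper than those of the high fat mice in both genes.

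Among the fatty acid oxidation genes and PPAR targets the interaction was called for 2 of 43. Cpt1a, which commits fatty acids to mitochondrial oxidation, had 505, 466 and 476 CPM in stem-called cells of the high fat mice and 256 and 128 CPM in those of the controls, against 507, 561 and 565 CPM and 299 and 194 CPM in other cells, and its log2 ratio differed between diets by 0.22 (SE 0.13, edgeR adjusted p = 1.0). No member of the crypt base, Wnt, Notch, enterocyte or enteroendocrine lists had a called diet difference. The median difference was 1.68 over the enteroendocrine markers and from −0.07 to 0.17 over the 4 other lists. In simulated counts the test recovered 56.5% of genes given a diet difference of 1. A difference that was not called is therefore not shown to be absent.

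Antigen presentation genes differed by class. MHC class II genes, which present peptides to helper T cells, were higher in 7 of 7 tested, with a median of 0.51, and at 3000 UMIs in 6 of 7. H2-Eb1 had 58.8, 90.4 and 36.2 CPM in stem-called cells of the high fat mice and 105 and 136 CPM in those of the controls, against 60.1, 43.5 and 15.9 CPM and 57.6 and 66.7 CPM in other cells. It was higher in 4 of 5 mice, not in high fat mouse 1, at 0.81 overall (SE 0.12, edgeR adjusted p = 0.000295). Only 2 of the 7 were higher in all 5 mice. Without cells rich in T and B cell markers 7 of 7 were called, with a median of 0.60. Myeloid cells also make class II, and this filter was not made to remove them, but it changed the values of their markers. With all cells kept, of 7 tested myeloid markers 5 were lower and 1 was not called, with a median of −1.32. The 1 higher was Cd74, itself a member of the class II list. Without the marker-rich cells, 1 of 5 tested myeloid markers was lower and 1 was higher, with a median of −0.165. Summed myeloid markers, with Cd74 among them, ran from 143 to 405 CPM in stem-called and from 91.6 to 630 CPM in other cells. Cd74 alone averaged 230 CPM in stem-called and 170.5 CPM in other cells. The part of myeloid cells in the class II values was not tested. MHC class I and interferon genes were lower in 13 of 21 and higher in 2, the membrane proteins Ifitm3 at 1.27 (SE 0.08) and Ifitm2 at 0.58 (SE 0.06).

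Of 16 genes that respond to tissue dissociation, among them immediate early and heat shock genes, 5 were higher and none lower, with a median of 0.17. Over all genes tested 23.2% were higher and 24.7% lower, so the higher count is near the background and no result about the list. Hspa1a, Hspa1b, Hsp90aa1 and Dnajb1, the heat shock genes, were not called. Jun was higher by 0.47 (SE 0.05), and Nr4a1 by 0.70 (SE 0.16). Of 15 adhesion and tight junction genes 8 were lower and 3 higher. The cadherin Cdh17 was at −0.60 (SE 0.07) and the laminin receptor subunit Itga6 at 0.39 (SE 0.04).

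**Figure D4:**
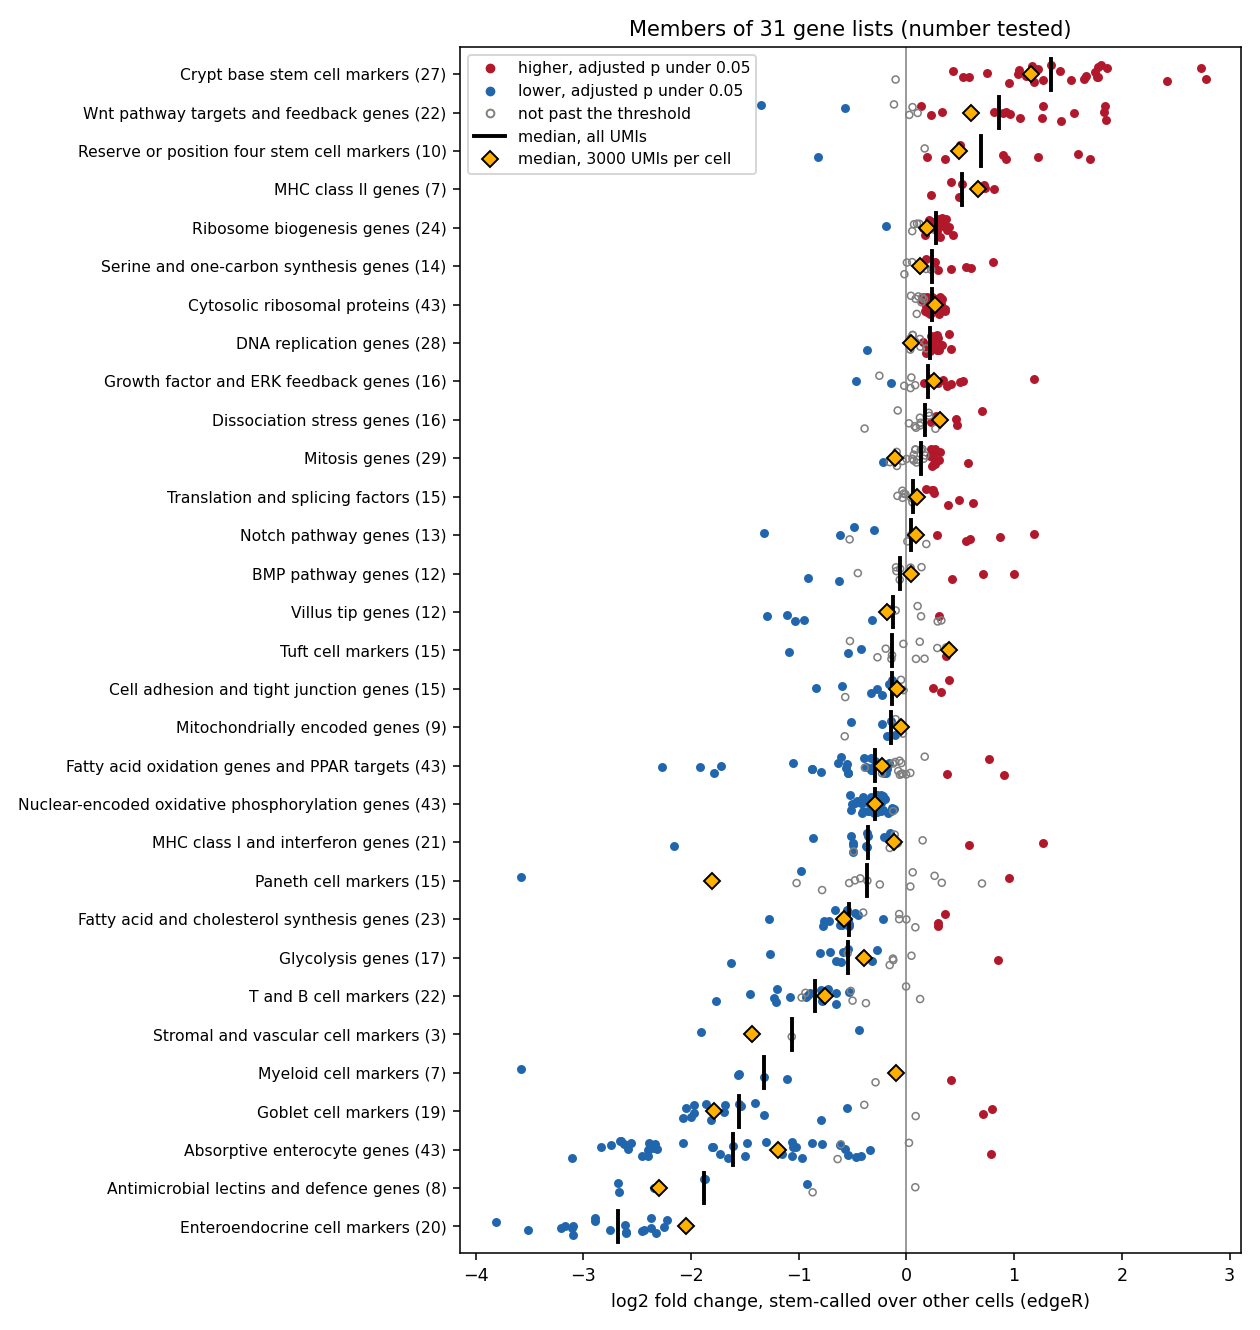
Log2 fold change of stem-called over other cells for each tested member of 31 gene lists, ordered by median, with called members filled (red higher, blue lower), members not past the threshold open, a black bar at the list median and a diamond at the median over the members tested at 3000 UMIs per cell. Crypt base markers lie at the top with a median of 1.34 and enteroendocrine markers at the bottom with −2.68, and Paneth markers show the widest gap between bar and diamond.

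Several list counts were taken again without high fat mouse 1. Crypt base markers were then higher in 26 of 27, Wnt genes in 16 of 23, enterocyte genes lower in 40 of 43 and oxidative phosphorylation genes lower in 42 of 43. T and B cell markers were lower in 11 of 22 without it, Paneth markers in 4 of 16, and villus tip genes were higher in 3 of 12. Over all genes tested without this mouse, 2925 were called higher and 3244 lower. With all 5 mice these counts were 2801 and 2987, or 23.2% and 24.7% of all genes tested. The Paneth and villus tip counts are near that background and are no result about these lists.

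The stem-called difference was also compared with that of the distal small intestine of the same mice, where 1884 of 6495 cells were stem-called. edgeR's interaction test found 93 of 11704 genes with a larger value in the proximal organ (0.795%) and 68 with a smaller one (0.581%), and 1614 genes had an unadjusted p under 0.05. Prss23, a secreted serine protease, averaged 38.6 ± 19.95 CPM in stem-called and 12.3 ± 7.73 CPM in other cells of the proximal organ, and 81.5 ± 25.5 CPM and 79.8 ± 21.6 CPM in the distal one (SD, n = 5 each). Its log2 ratio ran from 1.19 to 1.99 over the proximal and from −0.23 to 0.18 over the distal samples, with no overlap. The proximal minus distal difference was 1.73 (SE 0.13, edgeR adjusted p = 1.4e-05).

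Mep1a changed direction between the organs. It averaged 16.1 ± 2.15 CPM in stem-called and 9.16 ± 1.99 CPM in other cells of the proximal organ, and 28.0 ± 12.8 CPM and 47.9 ± 15.9 CPM in the distal one, a difference of 1.64 (SE 0.18, edgeR adjusted p = 0.000445). Tmem117, a membrane protein, also went opposite ways, at 0.39 in the proximal and −0.60 in the distal organ. The transcript 2210407C18Rik was higher in stem-called cells of both organs but less so in the proximal one, at 0.39 against 2.11, a difference of −1.68 (SE 0.17, edgeR adjusted p = 0.000394). Abcb1a, a drug efflux pump, and Casp6, a protease of cell death, had negative differences of −0.91 and −0.77. Both fell in the proximal organ, at −0.75 and −0.81, and stood at 0.20 and 0.01 in the distal one.

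Of the crypt base markers, 5 had a smaller rise in the proximal organ and none a larger one. Gkn3, a gastrokine, rose by 1.86 (SE 0.16) in the proximal and by 3.64 (SE 0.33) in the distal organ, with means of 170 ± 25.8 CPM in stem-called and 49.1 ± 21.5 CPM in other proximal cells and 14.9 ± 7.11 CPM and 1.32 ± 0.908 CPM in distal ones. The difference was −1.83 (SE 0.42, edgeR adjusted p = 0.0425). The others were Smoc2, Pdgfa, Slc14a1 and Arhgef26, named after their values were seen. Hk2 rose in the proximal organ and not detectably in the distal one (0.85 and 0.03), a difference of 0.86 (SE 0.16, edgeR adjusted p = 0.0161), and Reg1 fell more in the proximal one, by a difference of −1.93 (SE 0.44, edgeR adjusted p = 0.0448).

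**Figure D5:**
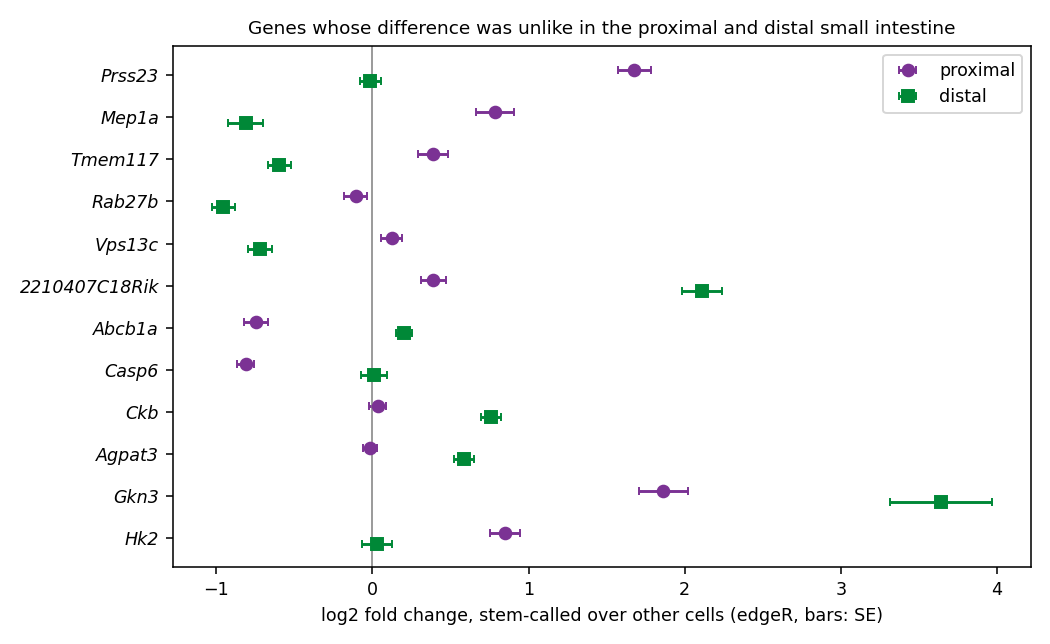
Log2 fold change of stem-called over other cells (edgeR) in the proximal (circles) and distal (squares) small intestine for 12 genes with a called difference between the organs, with bars for the SE. Prss23 stands at 1.68 in the proximal and −0.01 in the distal organ, and Mep1a and Tmem117 lie on opposite sides of 0.

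Within the stem-called cells, those with an Lgr5 UMI were set against the 57 with eGFP UMIs only, which came to 13, 2 and 12 cells in the high fat mice and 18 and 12 in the controls. edgeR called 9 of 9130 genes higher (0.0986%) and 2 lower (0.0219%), with 541 at an unadjusted p under 0.05. Limma's voom method called none in either direction. Mki67 had 576, 1170 and 1290 CPM in the Lgr5 cells of the high fat mice and 947 and 1480 CPM in those of the controls, against 1330, 1630 and 2120 CPM and 1190 and 1810 CPM in the eGFP-only cells. It was lower in the Lgr5 cells of 5 of 5 mice, at −0.54 (SE 0.13, edgeR adjusted p = 0.0327), and kept its direction but not its call without high fat mouse 1, at −0.39 (edgeR adjusted p = 0.399), high fat mouse 3, at −0.49 (edgeR adjusted p = 0.272), or control mouse 2, at −0.61 (edgeR adjusted p = 0.0565). Clca3, a chloride channel regulator relative, was lower at −2.27 (SE 0.49) and rested on 937 CPM in the 13 eGFP-only cells of high fat mouse 1, without which the value was 2.32. Sox4, a transcription factor of early progenitors, was higher in the Lgr5 cells at 0.90 (SE 0.17) and Tns3, a focal adhesion protein, at 0.98 (SE 0.18). Olfm4 averaged 4910 ± 507 CPM in the Lgr5 cells and 4010 ± 1760 CPM in the eGFP-only cells and did not differ past the threshold (edgeR adjusted p = 0.104). Chgb, a granule protein of hormone cells, the defensin gene Defa24 and the predicted gene Gm15284 were higher in the Lgr5 cells, at 2.41, 2.36 and 3.65, with 0 CPM in the eGFP-only cells of at least 1 mouse each.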

How the data were processed

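Raw counts, UMIs per gene and cell, and a table of cells were deposited by the authors for all 15 samples. The genome build is mm10 per the submitters' processing notes, and the aligner, annotation and cell filters are not given in the sources used here. The table holds 17185 genes, and the shallowest proximal cell has 538 UMIs. All of its sample columns were used.

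Counts were summed per proximal mouse and call, and edgeR 4.0.16 in R 4.3.3 tested the 10 sums (TMM, filterByExpr by call, quasi-likelihood F test, mouse as a block, Benjamini-Hochberg over all genes tested, threshold 0.05). Both sums of a mouse come from 1 library, which is where the pairing comes from. SE is the size of the log2 fold change over the square root of F. Interactions of the call with diet and with organ, and Lgr5 against eGFP-only cells, used the same test. The labels call the mice separate animals, so the spread is between mice. Cell measures had an exact two-sided sign-flip permutation test. Alternatives were RLE size factors, DESeq2 1.42.0, limma 3.58.1, no filter, no block, each mouse left out, cells thinned to 3000 UMIs, other call rules, removal of doublets (58 cells, Scrublet in scanpy 1.11.5) or of cells with at least 0.1% of UMIs from T and B cell markers, and equal weight per cell with a pseudocount of 1 CPM. The model scripts were tested on simulated data.

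Named genes are the 10 largest rises and falls with a mean of at least 20 CPM and 1 direction in all 5 mice, and up to 4 called members per list with a mean of at least 5 CPM. For interactions and Lgr5 against eGFP only they are up to 5 genes per direction by adjusted p and any gene already named. Some genes that the rule names are not reported here. Other named genes are list members chosen after their values were seen. The members and the 31 lists were chosen with earlier results of these data known. Genes seen rarely in a library look removed from it in the deposited table, so a 0 sets no limit. The authors' table numbers the control mice 1 and 3, and mouse 3 is called control mouse 2 here because no other title was free.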

Additional observations from a re-analysis of the deposited data

Results flagged for a closer look

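In 13 of the 129 genes named for the comparison of stem-called and other cells, the log2 ratio of high fat mouse 1 lay far from those of the 4 other mice, and no other mouse did so. Chance flags about 1 in 20 groups of 5. The ratio in this mouse was 1.52 for Gm830, 1.26 for Slc1a2, 1.1 for Rgmb and 0.22 for the elongation factor subunit Eef1b2. It was −0.04 for Bmp7, −0.02 for Smad5, −0.03 for H2-Eb1 and −0.27 for Ciita, the class II transactivator, all of which were called higher over the 5 mice. It was −0.64 for Cpe, −0.2 for Uqcrfs1, −0.13 for the succinate dehydrogenase subunit Sdhb, −0.33 for lactate dehydrogenase A (Ldha) and −0.29 for pyruvate kinase (Pkm). This library also had the lowest median depth and 253 of the 449 cells rich in T and B cell markers, and their part in these ratios was not tested.

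The log2 ratio of stem-called over other cells differed between high fat and control mice, by edgeR's interaction test, for Vim (2.48) and Acot1 (−1.47). It differed between the proximal and the distal organ for Prss23 (1.73), Tmem117 (1.02), Mep1a (1.64), the lipid transfer protein Vps13c (0.88), the secretory GTPase Rab27b (0.89), 2210407C18Rik (−1.68), Abcb1a (−0.91), Casp6 (−0.77), the creatine kinase Ckb (−0.69) and the acyltransferase Agpat3 (−0.56).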

How the results depend on the processing

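Counts of genes called in stem-called against other cells, 2801 higher and 2987 lower, fell to 665 and 903 at 3000 UMIs, to 109 and 296 with the call by eGFP alone, and to 670 and 959 with no replicate block, and the lower count to 1837 with equal weight per cell. The call by eGFP alone left out all cells with an Lgr5 UMI. Its stem side was thus only the 57 eGFP-only cells, 2 of them in high fat mouse 2. Leaving out 1 mouse gave 2043 to 2925 higher and 2426 to 3244 lower. For diet, higher and lower counts were 1 and 2, with 8 higher by DESeq2, 2 and 1 at 3000 UMIs, 0 and 0 with no replicate block, and 1 to 16 higher and 1 to 20 lower without 1 mouse, the most without high fat mouse 1. For organ, 93 and 68 became 30 and 17 at 3000 UMIs, 156 and 117 by limma voom, 0 and 0 with no replicate block, and 23 to 56 higher and 16 to 69 lower without 1 mouse. For Lgr5 against eGFP only, 9 and 2 became 0 and 0 by voom or with no replicate block, 22 and 5 with no filter, and 5 to 23 higher and 3 to 5 lower without 1 mouse. The causes were not tested.

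With the call by eGFP alone the sign turned for Smad5 (−0.18), Errfi1 (−0.036), Ung (−0.17), Rrm2 (0.14), Rps23 (−0.13), Nlrp6 (−0.038), Bcas1 (0.14), Avil (0.06), Ppat (−0.01), H2-Aa (−0.006), H2-Ab1 (−0.034) and Atf3 (−0.37). At 3000 UMIs it turned for Aurkb (−0.13), Nusap1 (−0.005), Avil (0.18) and mt-Nd3 (0.23), and Clca3 ran from −3.03 to 2.32 in Lgr5 against eGFP-only cells without 1 mouse, the highest without high fat mouse 1. Of the named genes, 62 lost their call with no replicate block, 27 at 3000 UMIs and 70 by eGFP alone. At 3000 UMIs per cell 11.1% of cells carried the call, against 25.3% at full depth.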
